A study of Mus musculus with 9 samples.

Results

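The genes described here are 10 chaperone and heat shock genes of the mouse 8-cell embryo, *Hspa1a*, *Hspa1b*, *Hspa8*, *Hspa5*, *Hsp90aa1*, *Hsp90ab1*, *Hsp90b1*, *Dnaja1*, *Dnajb1* and *Hsf1*, taken by symbol from the 55335 rows of each deposited table. ICR embryos had received siRNA as zygotes and were collected at the 8-cell stage, so that all 3 groups carried the injection. Control embryos received nontargeting siRNA, MFN1-KD embryos siRNA against *Mfn1*, which encodes a protein of mitochondrial fusion, and H3.3-KD embryos siRNA against the genes of the histone variant H3.3 (*H3f3a* and *H3f3b*). Each group had 3 libraries, each listed as a pool of 5 to 10 embryos, while the study's methods name 10 embryos from each group. Nothing in the labels says that the pools came from separate injections, so that p-values measure the spread between these libraries. Values are FPKM (fragments mapped to a gene, divided by its length and by the library's total), and the comparisons ask how the chaperone genes stood after the loss of *Mfn1* or of H3.3.

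Chaperones bind unfolded or unfinished proteins. HSP70 proteins grip short stretches of a client in a cycle of ATP hydrolysis that J-domain proteins start and exchange factors end, and HSP90 takes over selected clients such as kinases with the help of co-chaperones. The cytosol holds a constitutive HSP70 (*Hspa8*), 2 stress-inducible copies (*Hspa1a* and *Hspa1b*), an HSP90 that is classed as inducible (*Hsp90aa1*) and a constitutive one (*Hsp90ab1*), while BiP (*Hspa5*) and GRP94 (*Hsp90b1*) work in the endoplasmic reticulum (ER). HSF1 is the transcription factor of the heat shock response and is held inactive by chaperones in unstressed cells. In the mouse, *Hspa1a* and *Hspa1b* are among the first genes that the embryonic genome transcribes.

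The inducible pair lies on chromosome 17, and both genes consist of 1 exon. *Hspa1a* is at chr17:34969190-34972156 and *Hspa1b* at chr17:34956436-34959238, both on the minus strand of GRCm38 (the assembly also called mm10). Of the 150-base windows of the *Hspa1a* transcript, 38.1% also occurred in *Hspa1b*, and the bases before their starts were almost the same. The 250 bases before each start are shown from RefSeq (GRCm38.p6), since reads from these copies can be confused. Capitals mark a pair of inverted heat shock units, GAANNTTC.

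Hspa1a, chr17:34972157-34972406, minus strand: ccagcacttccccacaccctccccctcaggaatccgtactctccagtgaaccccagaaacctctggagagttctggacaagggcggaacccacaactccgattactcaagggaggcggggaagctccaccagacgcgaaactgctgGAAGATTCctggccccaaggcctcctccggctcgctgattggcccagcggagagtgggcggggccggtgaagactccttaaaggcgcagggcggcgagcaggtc

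Hspa1b, chr17:34959239-34959488, minus strand: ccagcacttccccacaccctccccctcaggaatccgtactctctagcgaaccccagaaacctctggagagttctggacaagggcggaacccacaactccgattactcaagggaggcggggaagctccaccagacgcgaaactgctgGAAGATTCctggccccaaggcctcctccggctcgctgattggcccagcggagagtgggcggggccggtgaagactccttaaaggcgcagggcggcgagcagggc

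Of these 250 bases 247 were identical, and the substitutions from *Hspa1a* to *Hspa1b*, counted from 1 at the 5′ end, were C44T, T47C and T249G. The heat shock units began 104 bases before the start in both genes. RefSeq windows were found for 6 of the 10 genes, *Hspa1a*, *Hspa1b*, *Hspa5*, *Hsp90b1*, *Dnaja1* and *Dnajb1*. GAANNTTC was also found before the most upstream start of *Dnaja1*, and it occurs in 6.69% of all 32817 windows of the same length in RefSeq. The other order of the 2 units, TTCNNGAA, was found before none of the 6 genes and occurs in 7.16% of all windows. The ER stress element, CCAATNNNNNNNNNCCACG, was found before *Hspa5* and, on each strand, before *Hsp90b1*, both ER chaperones, and occurs in 0.113% of all windows. Both strands were searched for each motif, and a match describes letters only. The matches outside the inducible pair are shown with 5 flanking bases on each side.

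Dnaja1, chr4:40722339-40722356, plus strand: ctctaGAAAATTCtacga

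Hspa5, chr2:34772020-34772048, plus strand: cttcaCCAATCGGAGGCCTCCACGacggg

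Hsp90b1, chr10:86705633-86705661, minus strand: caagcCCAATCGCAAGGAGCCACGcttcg

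Hsp90b1, chr10:86705528-86705556, minus strand: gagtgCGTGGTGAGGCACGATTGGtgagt

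The libraries went with their labels. On the scale of log2(FPKM + 1), *Mfn1* fell by 2.66 in MFN1-KD, while *H3f3a* fell by 3.69 and *H3f3b* by 3.64 in H3.3-KD (limma, adjusted p 0.0432, 7.23e-06 and 8.96e-06). The call for *Mfn1* was lost in 10 of 19 alternatives, 7 of them with 1 library left out, namely any control library, H3.3-KD replicate 1 or 2, or MFN1-KD replicate 2 or 3 (adjusted p over all alternatives 0.0244 to 0.158). Over all genes, MFN1-KD calls fell from 436 to 0 with control replicate 2 dropped, and also to 0 with control replicate 3 dropped. Dropping H3.3-KD replicate 2 left 1, the run with no filter 2 and the fit to 6 libraries 3. Almost no gene was called in those settings, so a lost call there says little about *Mfn1* itself. The count rose to 508 (median-ratio scaling), 543 (upper-quartile), 657 (filter at 10 FPKM), 1393 (library weights) and 661 (MFN1-KD replicate 2 dropped). Genes above 0 FPKM numbered 21643 to 22507 in control, 23655 to 24820 in H3.3-KD and 15577 to 20842 in MFN1-KD, with MFN1-KD replicate 3 the lowest. Read depth was not given by these values. Of 11 genes of cleavage-stage embryos 8 were above 0 in every library, with sums of 10530 to 14173 FPKM in control, 10627 to 14752 for MFN1-KD and 4435 to 6687 for H3.3-KD. Nearly all of this sum was *Dppa5a*, with a mean of 12791 FPKM in control and 5322 in H3.3-KD. It was the 1 gene of the list called lower in H3.3-KD, while 5 of 10 tested were called higher, with a median change of 1.11. *Pou5f1*, 1 of these, stood at 5.10 to 8.90 FPKM in control and 63.1 to 392 in H3.3-KD, and *Sox2* at 0 to 0.10 in control. The summed FPKM of 11 genes of the 2-cell stage was 27.1 to 32.1 in control, 37.4 to 108 for MFN1-KD and 224 to 576 for H3.3-KD. Most of the H3.3-KD sum was *Tdpoz4*, with a mean of 339 FPKM there and 13.9 in control. The summed FPKM of 10 oocyte genes was 40.0 to 48.8 in control, 31.4 to 52.2 for MFN1-KD and 32.9 to 57.9 for H3.3-KD, and that of 8 sperm genes was 1.68 to 2.93, 0.00 to 0.78 and 0.24 to 1.36. The sum of 11 cumulus cell genes was 16.2 to 30.0 in control, 10.6 to 19.9 for MFN1-KD and 38.8 to 67.4 for H3.3-KD. Nearly all of it was *Amhr2*, which was called higher in H3.3-KD without rescaling and under neither scaling, while *Fshr* and *Inhba* were at 0 throughout. The part of these markers in the results below was not tested.

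In control embryos *Hsp90aa1*, *Hspa8*, *Hsp90ab1* and *Dnaja1* of the cytosol were far above the ER chaperones, and the inducible HSP70 genes were close to 0. Cytosolic *Dnajb1* lay below *Hspa5* of the ER. The highest was *Hsp90aa1* (2754 ± 647 FPKM, SD, n = 3, also for the values that follow), which ranked 83rd of all rows. *Hspa8* followed at 1802 ± 192 FPKM, *Hsp90ab1* at 1188 ± 135 and *Dnaja1*, the J-domain partner of HSC70, at 699 ± 71.3. Together the 10 genes made up 0.458% to 0.581% of all FPKM in the control libraries. *Hspa5* stood at 67.9 ± 21 FPKM, *Dnajb1*, another J-domain partner of HSP70, at 20.2 ± 2.01, *Hsp90b1* at 14.9 ± 1.22 and *Hsf1* at 6.91 ± 2.52. *Hspa1b* (0.507 ± 0.191 FPKM) and *Hspa1a* (0.197 ± 0.0802 FPKM) came last. No neighbours in this order overlapped between the 3 control libraries. In H3.3-KD the order changed at the top, to *Hspa8*, *Hsp90ab1*, *Dnaja1* and *Hsp90aa1*, where *Hspa8* overlapped *Hsp90ab1* and *Dnaja1* overlapped *Hsp90aa1*. In MFN1-KD *Hsp90aa1* was again first, with overlap between *Hsp90aa1* and *Hspa8*, and *Hspa1b* had moved above *Hsf1*, also with overlap.

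**Figure D1:**
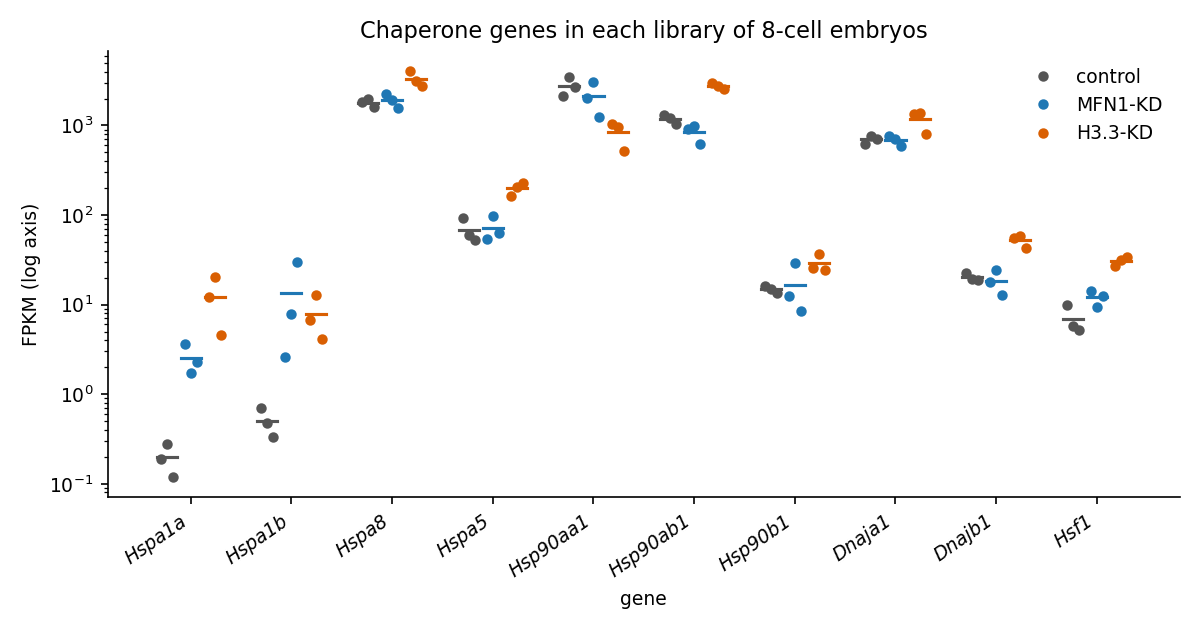
FPKM (log axis) of the 10 genes in each library, with 3 points and a bar for the mean of each group. The inducible pair rises from under 1 FPKM in control, and *Hsp90aa1* is the gene whose H3.3-KD libraries lie below those of control.

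In H3.3-KD embryos 8 of the 10 genes rose and 1 fell. The rise was largest in the inducible HSP70 genes and also took in *Hsf1*, BiP, the constitutive HSP90 and HSC70, whereas *Hsp90aa1* fell by 1.75 on the log2 scale. In pooled embryos a lower level of an mRNA in each cell cannot be told apart from fewer cells that hold it. A gene is called here at a Benjamini-Hochberg adjusted p under 0.05 over the 13011 genes tested by limma on log2(FPKM + 1). By that rule 21.8% of all genes were called higher and 9.12% lower in H3.3-KD against control. The median change was 1.27 for the 10 genes and 0.26 for all genes tested. At the study's threshold, more than 2-fold with an unadjusted p under 0.05, 6 were higher and 1 lower, beside 23.9% and 9.39% of all genes. In 9 genes every H3.3-KD library lay above every control library and in 1 every library lay below, which held for 34.5% and 18.9% of all genes. With libraries scaled by median ratios the median of all genes went from 0.26 to 0.00. The share of higher calls among all calls went from 70.5% to 53.9% (49.0% with upper-quartile scaling). Both scalings left 6 of the 10 genes higher and 1 lower. Of all 13011 genes, 2074 were then called higher and 1777 lower under median-ratio scaling, and 1888 and 1968 under upper-quartile scaling. Without rescaling these counts were 2841 and 1187.

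*Hspa1a* had 0.19, 0.28 and 0.12 FPKM in control replicates 1 to 3 and 12.01, 20.2 and 4.6 FPKM in H3.3-KD replicates 1 to 3. All H3.3-KD libraries were above all control libraries, with replicate 3 the lowest of them. The difference was 3.28 ± 0.47 (log2, SE; adjusted p = 0.000746), and the pseudocount of 1 holds this value far below the 62.5-fold ratio of the mean FPKM. *Hspa1b* went from 0.71, 0.48 and 0.33 FPKM to 6.73, 12.9 and 4.18 FPKM. Its groups did not overlap either, and the difference was 2.46 ± 0.68 (adjusted p = 0.0199). The call for *Hspa1b* was lost in 5 of 18 alternatives, among them the omission of control replicate 2 (adjusted p = 0.0584), control replicate 3 (0.0714) or H3.3-KD replicate 2 (0.075) and with the trend over GC content and length removed (log2 difference 1.49, adjusted p = 0.146), over a range of 0.000117 to 0.146. Since reads can be split between the copies, the summed FPKM is also given. The sum was 0.90, 0.76 and 0.45 FPKM in control and 18.7, 33.1 and 8.78 FPKM in H3.3-KD, a rise of 3.47 ± 0.59 (log2, adjusted p = 0.00194) that was called in each of 17 alternatives.

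*Hspa8*, which encodes HSC70, the constitutive HSP70 of the cytosol, had 1819, 1985 and 1602 FPKM in control and 4053, 3100 and 2734 FPKM in H3.3-KD. The groups did not overlap, and the rise was 0.86 (adjusted p = 0.00935), or 0.60 above the median of all genes. Under median-ratio scaling it was 0.51 with an adjusted p of 0.0982, and under upper-quartile scaling 0.42 with 0.147 (range over 19 alternatives 0.000557 to 0.147). Of the 150-base windows of the *Hspa8* transcript 20.2% also occurred in *Gm15459*, a copy named here after its values were seen. *Gm15459* itself stood at 663 ± 62.4 FPKM in control, 2256 ± 749 FPKM in H3.3-KD and 218 ± 141 FPKM in MFN1-KD (SD, n = 3), so reads of the gene and the copy may be exchanged. With *Hspa8* and its 3 copies summed the rise in H3.3-KD was 1.15 (adjusted p = 0.0039).

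*Hspa5* (BiP, the HSP70 of the ER and a target of the unfolded protein response) had 91.9, 59.2 and 52.6 FPKM in control and 164, 204 and 227 FPKM in H3.3-KD. Every H3.3-KD library exceeded every control library, and the rise was 1.57 ± 0.30 (adjusted p = 0.00328). *Hsp90b1*, the HSP90 of the ER, had 16.1, 14.9 and 13.6 FPKM in control and 25.5, 36.9 and 24.6 FPKM in H3.3-KD. It did not overlap but was not called (0.90, 95% interval 0.02 to 1.78, adjusted p = 0.112). It was called in 4 of 19 alternatives, namely library weights (adjusted p = 0.00461), a fit to the 6 libraries of the comparison (0.0211) and the omission of MFN1-KD replicate 2 (0.0357) or 3 (0.0491), over a range up to 0.323.

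The cytosolic HSP90 genes moved in opposite directions. *Hsp90aa1* had 2154, 3440 and 2670 FPKM in control and 1047, 958 and 517 FPKM in H3.3-KD. Every H3.3-KD library was below the lowest control library, and the fall was called (-1.75 ± 0.36, adjusted p = 0.00497). *Hsp90ab1* had 1302, 1222 and 1039 FPKM in control and 2998, 2728 and 2530 FPKM in H3.3-KD. Here every H3.3-KD library was above the highest control library, with a rise of 1.21 ± 0.20 (adjusted p = 0.00183). Of the windows of *Hsp90aa1* 30.0% also occurred in *Gm12346*, which stood at 3.51 to 32.8 FPKM, and with the copies summed the fall was again -1.75.

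The J-domain genes and *Hsf1* completed the set. *Dnajb1* had 22.5, 19.3 and 18.8 FPKM in control and 55.5, 57.7 and 42.9 FPKM in H3.3-KD, without overlap, and rose by 1.32 ± 0.28 (adjusted p = 0.00576). With the trend over GC content and length removed the rise was 0.76 with an adjusted p of 0.0595, the only 1 of 19 alternatives in which the call was lost (range 5.85e-05 to 0.0595). *Dnaja1* had 626, 768 and 703 FPKM in control and 1331, 1391 and 793 FPKM in H3.3-KD. Its groups were separated only narrowly at H3.3-KD replicate 3, the rise was 0.71 ± 0.23 (adjusted p = 0.0425), and the call was lost in 10 of 19 alternatives, 7 of them with 1 library left out (any control library, H3.3-KD replicate 1 or 2, or MFN1-KD replicate 1 or 2, adjusted p 0.0513 to 0.153) and both scalings (0.307 and 0.413). *Hsf1* had 9.80, 5.78 and 5.16 FPKM in control and 26.8, 31.4 and 34.3 FPKM in H3.3-KD. The groups were far apart, and the rise of 2.05 ± 0.31 (adjusted p = 0.000957) was called in each of 19 alternatives.

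**Figure D2:**
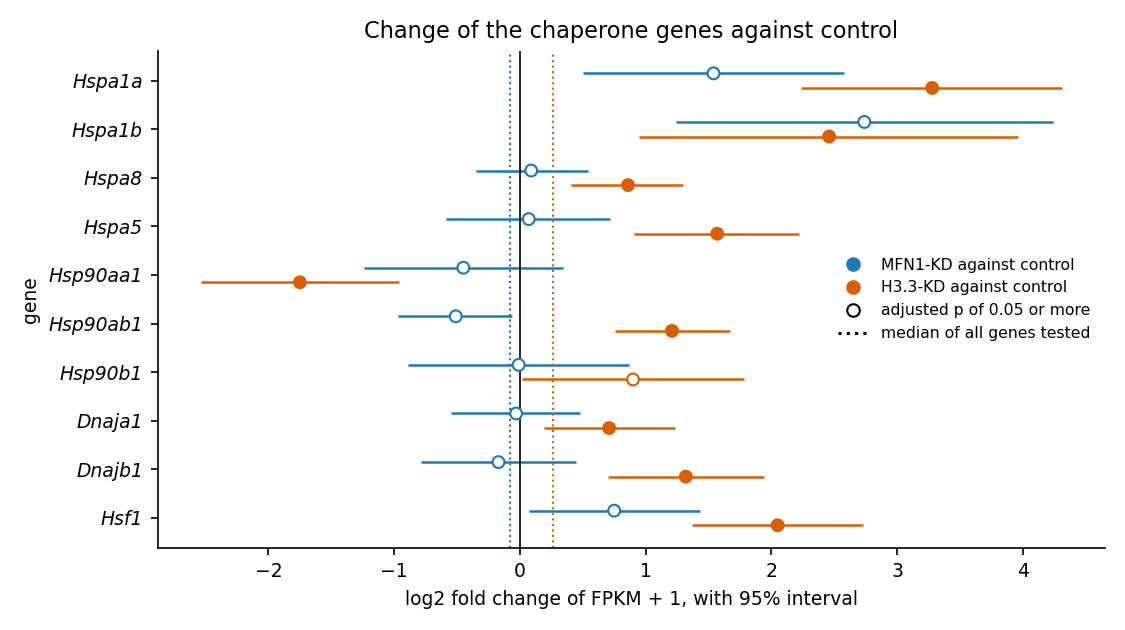
Log2 fold change of FPKM + 1 against control for MFN1-KD and H3.3-KD, with the 95% interval of limma; filled points have an adjusted p under 0.05 and dotted lines mark the median of all genes tested. In H3.3-KD 9 points are filled and only *Hsp90aa1* is below 0, and in MFN1-KD no point is filled.

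In MFN1-KD embryos none of the 10 genes was called, and the values that stood out were those of the inducible HSP70 pair. Of all genes tested 1.15% were called higher and 2.2% lower in this comparison. The median change of the 10 genes was 0.03, and that of all genes -0.08. At an unadjusted p under 0.05 and more than 2-fold, *Hspa1a* and *Hspa1b* were higher and none was lower, beside 5.02% and 9.05% of all genes. The groups did not overlap in 2 genes in the higher direction (the same pair) and in 1 in the lower direction (*Hsp90ab1*), beside 11.4% and 16.8% of all genes. Both knockdowns were compared with the same control libraries, so the values of the comparisons are not independent.

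*Hspa1a* had 3.65, 1.74 and 2.28 FPKM in MFN1-KD, and *Hspa1b* 2.61, 7.93 and 30.2 FPKM. Each was above all control libraries, and *Hspa1b* spread over a wide range with replicate 3 the highest. The differences were 1.54 (95% interval 0.50 to 2.58, adjusted p = 0.0911) for *Hspa1a* and 2.74 (1.24 to 4.24, adjusted p = 0.0558) for *Hspa1b*. Both were called with a pseudocount of 0.1 and with library weights, and *Hspa1b* also without MFN1-KD replicate 1 (3.48, adjusted p = 0.0367, range 0.0244 to 0.198). Without MFN1-KD replicate 3, the library with the fewest genes above 0, *Hspa1b* was 1.92 with an adjusted p of 0.0766. The sum of the pair was 6.26, 9.67 and 32.4 FPKM, above all control libraries, and rose by 3.02 ± 0.59 (adjusted p = 0.0354). This call was lost in 8 of 17 alternatives (adjusted p over all of them 0.0082 to 0.151). Of these 5 were the omission of control replicate 1 (adjusted p = 0.0718), 2 (0.137) or 3 (0.151) or of H3.3-KD replicate 1 (0.0542) or 2 (0.0578). Over all genes, 0 calls remained with control replicate 2 dropped, 0 with control replicate 3 dropped and 1 with H3.3-KD replicate 2 dropped. Those losses were therefore not particular to the pair. The call was kept without MFN1-KD replicate 3 (2.38, adjusted p = 0.0411). *Hspa1a* was 58.3% of the sum in MFN1-KD replicate 1, 18.0% in replicate 2 and 7.03% in replicate 3, against 21.1% to 36.8% in control and 52.4% to 64.1% in H3.3-KD.

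None of the other genes of the set was called in MFN1-KD, which does not show that they were unchanged. The 95% interval of *Hsp90ab1* lay wholly on the lower side and that of *Hsf1* wholly on the higher. For *Hsp90aa1* the interval allows more than a halving. *Hspa8* had 2273, 1948 and 1584 FPKM, and the difference from control was 0.09 (95% interval -0.35 to 0.54). *Hspa5* had 53.6, 98.4 and 62.6 FPKM (0.07, -0.59 to 0.72). Both overlapped the control libraries, and the intervals exclude a doubling. *Hsp90aa1* had 2003, 3095 and 1250 FPKM (-0.45, -1.24 to 0.34), with replicates 1 and 3 below all controls and replicate 2 within their range. *Hsp90ab1* had 922, 993 and 619 FPKM, all below the lowest control library, at -0.51 (-0.97 to -0.06, adjusted p = 0.168). *Hsp90b1* had 12.6, 29.2 and 8.50 FPKM (-0.01, -0.89 to 0.87), on both sides of the controls. *Dnaja1* had 756, 714 and 582 FPKM (-0.03, -0.55 to 0.48) and *Dnajb1* 17.8, 24.2 and 12.9 FPKM (-0.17, -0.79 to 0.45), overlapping control in both cases. *Hsf1* had 14.3, 9.40 and 12.6 FPKM, with replicate 2 inside the control range, at 0.75 (0.07 to 1.43, adjusted p = 0.176).

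Set directly against each other, MFN1-KD was called lower than H3.3-KD in 7 of the 10 genes and higher in 1, beside 27.6% and 11% of all genes tested and a median of all genes of -0.39. The lower genes were *Hsp90ab1* (-1.73), *Hspa1a* (-1.74), *Hspa5* (-1.50), *Dnajb1* (-1.49), *Hsf1* (-1.29), *Hspa8* (-0.76) and *Dnaja1* (-0.74), with adjusted p from 0.000191 to 0.029, and *Hsp90aa1* was the higher one (1.30, adjusted p = 0.0161). *Hspa1b* (0.29, 95% interval -1.22 to 1.79) and *Hsp90b1* (-0.91, -1.79 to -0.03, adjusted p = 0.0943) were not called. Nor was the sum of *Hspa1a* and *Hspa1b* (-0.45, -1.76 to 0.86, adjusted p = 0.577), whose interval allows more than a doubling in the lower direction and just under one in the higher. Removing the trend over GC content and length ended the calls for *Hspa1a* (-0.64, adjusted p = 0.334) and *Hsf1* (-0.63, 0.122). The call for *Hspa8* was lost under median-ratio (-0.35, 0.224) and upper-quartile scaling (-0.28, 0.319), and upper-quartile scaling also ended that for *Hsf1* (-0.83, 0.0532). The calls for *Hspa5*, *Hsp90ab1* and *Dnajb1* were kept in each of 19 alternatives. Leaving out H3.3-KD replicate 2 ended the call for *Hspa1a* (-1.30, adjusted p = 0.0595), leaving out H3.3-KD replicate 1 that for *Hspa8* (0.0521), and leaving out H3.3-KD replicate 3 (0.0582) or MFN1-KD replicate 2 (0.0528) that for *Hsp90aa1*. The call for *Dnaja1* was lost in 8 of 19 alternatives, among them both scalings (-0.32, 0.328, and -0.25, 0.432), and 4 of them with 1 library left out, which were H3.3-KD replicate 1 (adjusted p = 0.10) or 2 (0.114) and MFN1-KD replicate 2 (0.0505) or 3 (0.069).

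The balance within the cytosolic HSP90 pair separated H3.3-KD from the other groups. *Hsp90aa1* made up 62.3%, 73.8% and 72.0% of the summed FPKM of the pair in control and 68.5%, 75.7% and 66.9% in MFN1-KD, but 25.9%, 26.0% and 17.0% in H3.3-KD. The H3.3-KD libraries thus stood apart from the 6 others, while control and MFN1-KD overlapped. The sum of the pair was 3456, 4662 and 3709 FPKM in control and 4045, 3687 and 3047 FPKM in H3.3-KD, which overlapped. The log2 ratio of *Hsp90aa1* to *Hsp90ab1* was 1.19 ± 0.41 in control, 1.26 ± 0.34 for MFN1-KD and -1.77 ± 0.45 for H3.3-KD (SD, n = 3). It was lower by 2.96 in H3.3-KD than in control (exact permutation, two-sided, p = 0.10, which is the lowest possible with 3 libraries a group), and the difference between MFN1-KD and control was 0.06 (exact permutation p = 0.90).

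**Figure D3:**
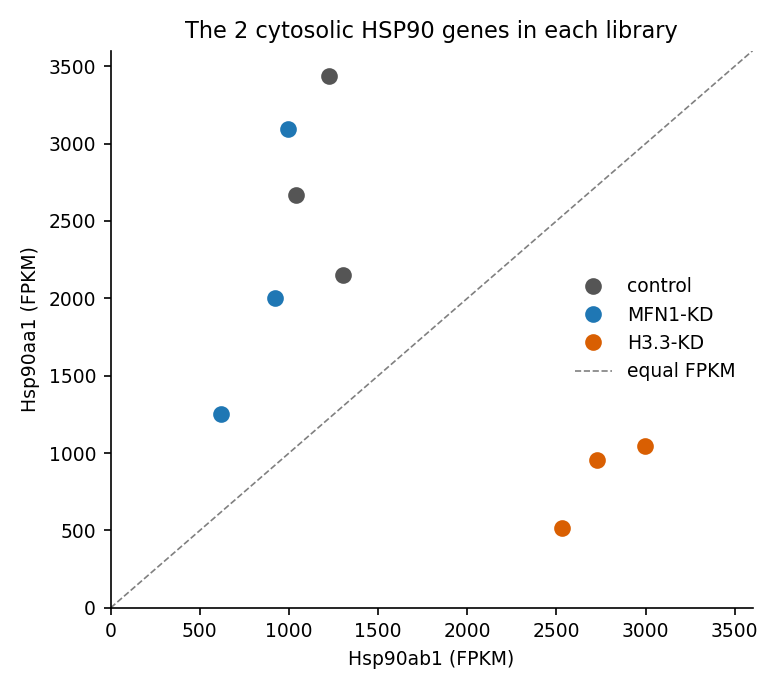
FPKM of *Hsp90aa1* against *Hsp90ab1*, 1 point per library, with the dashed line at equal levels. The 3 H3.3-KD libraries lie below the line and the 6 other libraries above it.

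A second ratio set the inducible HSP70 pair against the constitutive *Hspa8*. *Hspa8* exceeded the sum of the pair 2020-fold, 2610-fold and 3560-fold in the control libraries, 216-fold, 93.6-fold and 311-fold in H3.3-KD and 363-fold, 201-fold and 48.8-fold in MFN1-KD. So the inducible copies remained a small part of cytosolic HSP70 mRNA in every library, and both knockdowns lay apart from control. The log2 ratio of the pair to *Hspa8* (1 FPKM added to each) was -10.05 ± 0.13 in control, -7.12 ± 1.40 for MFN1-KD and -7.44 ± 0.84 for H3.3-KD. The differences from control were 2.93 and 2.61 (exact permutation p = 0.10 each, the smallest possible), and that between the knockdowns was 0.32 (exact permutation p = 0.70).

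The wider folding machinery was read from 10 lists of related genes. Beside the counts in H3.3-KD stand the shares over all genes tested, 21.8% called higher and 9.12% lower. Scaling changed these as well, from 2841 genes higher and 1187 lower to 2074 and 1777 (median-ratio) or 1888 and 1968 (upper-quartile). In H3.3-KD, HSP70 exchange factors and partners had 5 of 9 genes called higher and none lower (*Bag1*, *Bag3*, *Bag5*, *Bag6* and *Hspbp1*), with a median change of 0.93. *Bag3*, which links HSP70 to small heat shock proteins and autophagy and is itself a heat shock gene, went from 10.2 ± 6.72 FPKM in control to 29.4 ± 7.59 in H3.3-KD (1.57, adjusted p = 0.0192), a call that was lost in 6 of 19 alternatives, 3 of them the omission of control replicate 2 or 3 or of H3.3-KD replicate 2 (range up to 0.189). Under median-ratio scaling 2 of these 9 genes were higher and 1 lower, and under upper-quartile scaling 1 and 1. Among the HSP90 co-chaperones 7 of 22 were higher (6 under either scaling) and 3 lower, with a median of 0.67. *Ppp5c*, a phosphatase that HSP90 recruits, rose from 2.81 ± 0.545 to 47.0 ± 11.4 FPKM (3.64, adjusted p = 0.000162), whereas *Sugt1*, a co-chaperone for leucine-rich repeat proteins, fell from 2710 ± 232 to 1096 ± 63.5 FPKM (-1.30, adjusted p = 0.000262). Of the other HSP70 and HSP110 genes 2 of 8 were higher, close to the share over all genes. They were *Hspa2* (1.63) and *Hyou1*, the HSP110 of the ER, which went from 1.85 ± 0.535 to 14.0 ± 4.24 FPKM (2.38, adjusted p = 0.000892).

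Other J-domain proteins had 6 of 30 genes higher and 2 lower (*Dnajc24* and *Dnajc13*), close to the shares over all genes. *Dnajc5*, the cysteine string protein, rose by 1.90 (adjusted p = 0.00272), and *Dnajc24*, a factor of diphthamide synthesis, fell by 1.84 (adjusted p = 0.0486), which was lost in 9 of 19 alternatives (up to 0.132), with any control library, H3.3-KD replicate 3 (-1.05) or MFN1-KD replicate 1 left out among them. ER folding and quality control had 5 of 29 higher (*Calr*, *Dnajb11*, *Pdia3*, *Syvn1* and *Txndc5*) and 1 lower (*Manf*), neither above the share over all genes. The median of this list was 0.45, with 4 higher and 5 lower under median-ratio and 3 and 5 under upper-quartile scaling. *Syvn1*, a ubiquitin ligase of ER-associated degradation, rose from 1.34 ± 0.41 to 12 ± 1.55 FPKM (2.48, adjusted p = 0.00035), and *Manf*, an ER stress-induced secreted factor, fell by 1.2 (adjusted p = 0.0465), which was lost in 7 of 19 alternatives (up to 0.143), among them the omission of any control library or of H3.3-KD replicate 1 or 3. Of the 5 sensors of unfolded proteins, *Atf6b* (2.81, adjusted p = 0.000533) and *Ern1* were higher and none was lower, with 1 higher under either scaling.

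The chaperonin TRiC folds actin and tubulin, and prefoldins bring clients to it. None of the 15 genes of this list was called higher in H3.3-KD and 7 were called lower, of which 5 encode prefoldin subunits (*Pfdn1*, *Pfdn4*, *Pfdn5*, *Pfdn6* and *Vbp1*) and 2 TRiC subunits (*Cct6b* and *Cct8*), with a median of -0.43 beside 0.26 for all genes. The count was 8 under median-ratio and 9 under upper-quartile scaling, while lower calls over all genes went from 1187 to 1777 and 1968. *Pfdn1* fell from 86.4 ± 4.50 to 31.2 ± 15.4 FPKM (-1.59, adjusted p = 0.0106). Of 9 mitochondrial chaperones 3 were higher (*Hspa9*, *Hspd1* and *Trap1*, the last by 1.45, lost in 11 of 19 alternatives, among them the omission of any control or H3.3-KD library, up to 0.116) and 3 lower (*Dnajc15*, *Grpel1* and *Hspe1*, the last by -1.81 from 118 ± 27.7 to 33.7 ± 12.9 FPKM). *Hspe1* is the partner of *Hspd1*, so the genes of 1 chaperonin were called in opposite directions without rescaling. Under median-ratio scaling 2 mitochondrial chaperones were higher and 4 lower, and under upper-quartile scaling 1 and 4. Of 11 genes listed under small heat shock proteins 3 could be tested. The only 1 called was *Hspb11* (lower, -1.90), which was listed by its symbol, so no fall of small heat shock proteins is read from it. Of the heat shock factors and their regulators 3 of 7 could be tested and *Hsbp1*, which binds HSF1 trimers, was lower (from 150 ± 19.8 to 45.8 ± 14.6 FPKM, -1.74, adjusted p = 0.0013).

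**Figure D4:**
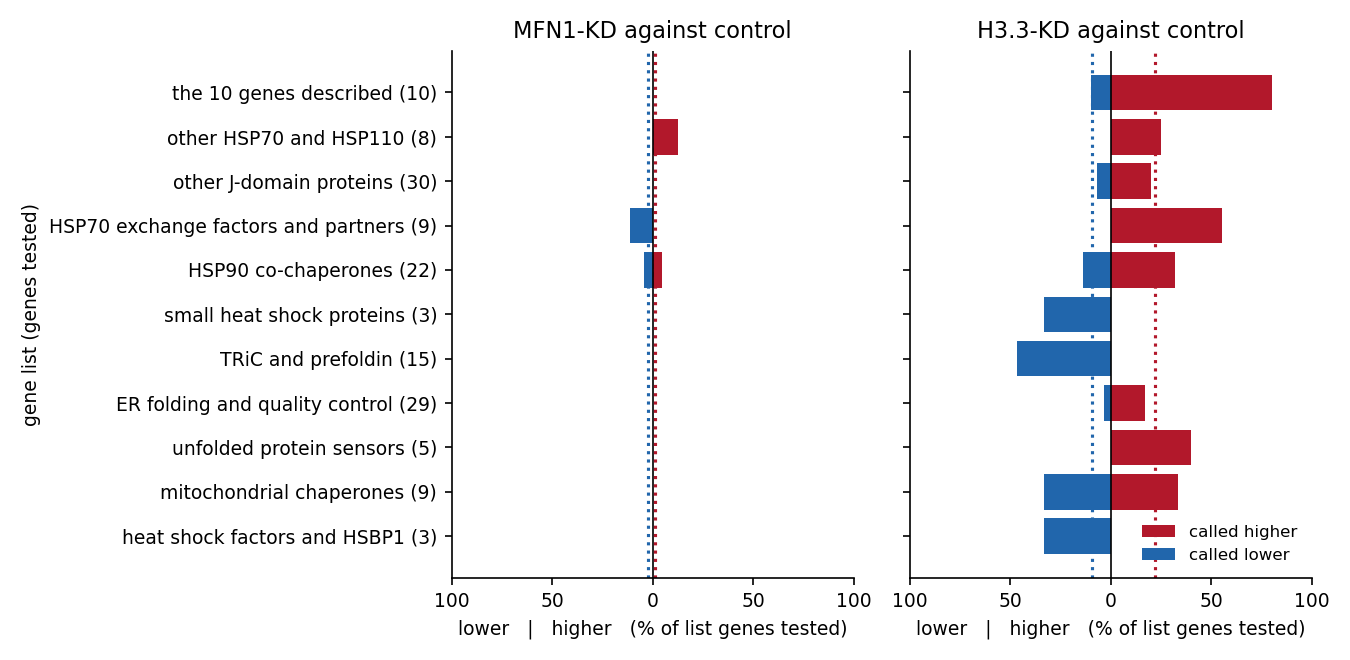
Share of tested genes (%) called higher (to the right) or lower (to the left) at an adjusted p under 0.05 in each list, with dotted lines for the shares over all genes tested. In H3.3-KD the 10 genes described here (8 higher, 1 lower) and the exchange factors (5 higher of 9) extend to the right and TRiC and prefoldin (7 lower of 15) to the left, and in MFN1-KD 3 lists have any call.

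In MFN1-KD 4 genes of these lists were called, beside 1.15% of all genes tested called higher and 2.2% lower. They were 1 of 8 other HSP70 and HSP110 genes (higher), 1 of 9 exchange factors and partners (lower) and, of 22 HSP90 co-chaperones, 1 higher and 1 lower. The remaining lists had none, and no excess over the shares of all genes is read from so few calls. *Hspa2*, an HSP70 known from spermatogenesis, rose from 3.23 ± 0.876 to 11.7 ± 2.32 FPKM (1.59, adjusted p = 0.0382). *Stub1*, the ubiquitin ligase CHIP that acts on HSP70 and HSP90 clients, fell from 28.7 ± 0.576 to 6.44 ± 5.2 FPKM (-2.27, adjusted p = 0.0377). *Cdc37*, which brings kinases to HSP90, fell from 27.2 ± 7.58 to 7.01 ± 2.96 FPKM (-1.85, adjusted p = 0.0333), while in H3.3-KD it rose to 156 ± 10.3 FPKM (2.51, adjusted p = 0.000488). The direct difference between the knockdowns for *Cdc37* was -4.36 (adjusted p = 2.72e-05). *Ptges3*, the HSP90 co-chaperone p23, was chosen after its values were seen and went the opposite way, with a rise of 0.82 in MFN1-KD (adjusted p = 0.0479) and a fall of 0.88 in H3.3-KD (adjusted p = 0.00644). Like most of the 436 calls over all genes, these MFN1-KD calls were not firm. The settings that left 0 to 3 calls over all genes ended each of them, which says little about these genes in particular. *Hspa2* lost its call in 9 of 18 alternatives (up to 0.158), *Stub1* in 8 of 19 (up to 0.158), *Cdc37* in 8 of 19 (up to 0.145) and *Ptges3* in 14 of 19 (up to 0.193). The omission of any control library, or of H3.3-KD replicate 1 or 2, ended each of these calls, that of MFN1-KD replicate 3 also ended those of *Hspa2* and *Ptges3*, and that of MFN1-KD replicate 1 or 2 that of *Ptges3*. In the remaining lists the genes with the smallest p in MFN1-KD were not called, with log2 differences of 1.26 for *Dnajc25*, -1.90 for *Hspb1*, -0.43 for *Pfdn6*, -1.21 for *Pdia6*, 0.85 for *Eif2ak3*, which encodes the sensor PERK, -0.68 for *Grpel1* and 1.34 for *Hsf2* (adjusted p from 0.064 to 0.173).

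The genes whose pattern over the 9 libraries was most like that of a chaperone were sought among 5925 genes averaging 10 FPKM or more, by Pearson's r of log2(FPKM + 1). The libraries fall into 3 groups, so r reflects mostly the group means. For the sum of *Hspa1a* and *Hspa1b* these were *Chpt1* (0.971), *Rab10* (0.953) and *Ubqln2* (0.952), the last with a mean of 2.89 FPKM in control, 19.9 FPKM in MFN1-KD and 16.2 FPKM in H3.3-KD. For *Hspa8* they were *Smad2* (0.960), *Fig4* (0.958) and *Khdc1a* (0.956). *Hspa5* was most like *Eloa* (0.990), *Eif4g1* (0.988) and *Rbpms2* (0.982), and *Hsp90ab1* was most like *Nudt3* (0.995), *Rhoa* (0.993) and *Eif4a2* (0.993).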

How the data were processed

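RNA of 8-cell embryos was sequenced by the authors after oligo-dT priming and amplification (Smart-Seq2). Per the labels, reads were trimmed with cutadapt 1.16 and mapped to mm10 with STAR, while the program, annotation and strand setting behind the values are not given in the sources used here. The deposited values are FPKM with 2 decimals, so depth is unknown and no counting interval is given. Length-scaled values from amplified cDNA depend on annotated length and on reads shared between copies.

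FPKM was taken as log2(FPKM + 1), the 13011 genes averaging 1 FPKM or more in the 9 libraries were kept, and 1 linear model without covariates was fitted with limma 3.58.1 (trend, robust) in R 4.3.3, with Benjamini-Hochberg adjustment over all genes tested. The step was tested on simulated data. Ratios were compared by exact permutation in scipy. Positions, GC content and shared 150-base windows came from GENCODE M21, and promoters from RefSeq.

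The genes, lists and tests were chosen with earlier results of these data known. Besides the 10 genes, each list names at most 3 genes: the called gene with the largest rise and that with the largest fall in H3.3-KD, and that with the smallest p in MFN1-KD. Other called genes are named without values, and *Gm15459* and *Ptges3* were chosen after their values were seen. For 4 of the chaperone measures, the 3 most similar genes are named.

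Alternatives were scaling by upper quartiles or median ratios, a filter at 10 FPKM or none, 0.1 as pseudocount, a block for the replicate number, a fit to just the 6 libraries of a comparison, library weights, removal of the GC and length trend (98.1% of genes had both values), and each library left out. Genes summed with their copies were added after seeing the data.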

Additional observations from a re-analysis of the deposited data

Results flagged for a closer look

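For 8 of the 10 genes the change from control differed between the knockdowns by the direct test (limma, adjusted p under 0.05). Of all genes tested 27.6% were called lower and 11% higher in MFN1-KD than in H3.3-KD, with a median of -0.39. As MFN1-KD minus H3.3-KD on the log2 scale the difference was -1.74 for *Hspa1a*, -0.76 for *Hspa8*, -1.50 for *Hspa5*, 1.30 for *Hsp90aa1*, -1.73 for *Hsp90ab1*, -0.74 for *Dnaja1*, -1.49 for *Dnajb1* and -1.29 for *Hsf1*. The calls for *Hspa5*, *Hsp90ab1* and *Dnajb1* were kept under every alternative run. With the GC and length trend removed *Hspa1a* was -0.64 (adjusted p = 0.334) and *Hsf1* -0.63 (0.122), under upper-quartile scaling *Hspa8* was -0.28 (0.319), *Dnaja1* -0.25 (0.432) and *Hsf1* -0.83 (0.0532), and *Hspa8* and *Dnaja1* were also lost under median-ratio scaling. *Hsp90aa1* was lost in 3 of 19 alternatives (adjusted p up to 0.0582). The groups of 3 libraries are too small to test for a library that stands apart.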

How the results depend on the processing

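The direction of every called change of the 10 genes held under every alternative that gave a value, and the exceptions below concern values that were not called, counts and ratios. Depth is unknown, and *Hspa1a* and *Hspa1b* are near the lowest values that 2 decimals can carry in control. A filter at 10 FPKM gave no value for *Hspa1a* or *Hspa1b*, so that 0 of the genes passed the study's threshold in MFN1-KD, while their sum passed the filter and kept its calls. The cause of the shifts given here was not tested.

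In MFN1-KD 2 of the 10 genes were called with library weights and 2 with a pseudocount of 0.1, and 0 to 1 with 1 library left out (1 without MFN1-KD replicate 1). Between the knockdowns 5 were called lower or higher under upper-quartile scaling. The sum of *Hspa1a* and *Hspa1b* in MFN1-KD was 3.02 without a filter (adjusted p = 0.136) and 3.02 in the 6 libraries alone (0.0714), and 2.38 to 3.48 with 1 library left out. Between the knockdowns the sum was -1.33 with library weights (called, 0.0446), 0.01 under upper-quartile scaling and -1.09 to 0.01 with 1 library left out. With a pseudocount of 0.1 the log2 ratio of the pair to *Hspa8* differed from control by 3.93 for MFN1-KD and 3.65 for H3.3-KD. With 1 library left out this ratio differed between the knockdowns by -0.46 to 0.90, and that of *Hsp90aa1* to *Hsp90ab1* between MFN1-KD and control by -0.17 to 0.21.

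Small MFN1-KD differences changed sign. With the GC and length trend removed *Hspa8* was -0.07 and *Hspa5* -0.16. *Hsp90b1* was 0.05 under median-ratio and 0.04 under upper-quartile scaling and 0.11 with library weights, and *Dnaja1* 0.03 and 0.02 under these scalings. Summed with their copies, *Hspa8* was -0.21 and *Dnaja1* 0.08. Library weights turned *Hspa1b* between the knockdowns to -0.72. With 1 library left out the ranges were -0.03 to 0.23 for *Hspa8*, -0.18 to 0.30 for *Hspa5*, -0.48 to 0.36 for *Hsp90b1*, -0.11 to 0.08 for *Dnaja1* and -0.38 to 0.05 for *Dnajb1*, and -0.53 to 1.02 for *Hspa1b* between the knockdowns.

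Whether the replicate numbers pair the libraries is not settled by the values. The deviations of same-numbered libraries correlated weakly, at -0.05 to 0.16, and those of differently numbered ones at -0.12 to 0.07. The highest values, 0.16 and 0.14, were between same-numbered libraries. With the replicate block the sum of *Hspa1a* and *Hspa1b* in MFN1-KD was 3.02 with an adjusted p of 0.0512, and the MFN1-KD calls of *Hspa2*, *Stub1*, *Cdc37* and *Ptges3* were lost (0.0505 to 0.0546), with no call of the 10 genes changed. Of all genes 31 were called in MFN1-KD with this block, against 436 without it.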
